A study of Homo sapiens with 9 samples.

Results

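The genes described here are the Wnt ligands, their Frizzled receptors and LRP co-receptors, the secreted Wnt inhibitors of the Dickkopf (DKK) and secreted Frizzled-related (SFRP) families, and 5 feedback or nuclear genes of the pathway. They were chosen by name from the protein-coding genes of the deposited table: every WNT and FZD gene, DKK1 to DKK4, SFRP1 to SFRP5, and LRP5, LRP6, AXIN2, RNF43, ZNRF3, TCF7 and LEF1. The rule found 44 genes among 58735, of which 19951 were protein coding. The rule uses names only. By role they were 19 ligands, 10 Frizzled receptors, 2 co-receptors, 8 secreted inhibitors, 2 ubiquitin ligases that act on the receptors, and 3 target or nuclear genes.

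Wnt ligands are secreted lipid-modified glycoproteins that bind a Frizzled receptor together with LRP5 or LRP6. Binding inhibits the complex that degrades beta-catenin, which then enters the nucleus and activates genes with the TCF and LEF factors, while other ligand and receptor pairs act without beta-catenin on cell polarity and movement. DKK proteins bind LRP5 and LRP6, and SFRP proteins bind the ligands, so that both families limit signalling from outside the cell.

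Every library came from MDA-MB-231 (genotype label WT), a line established from a human breast cancer, and the cells that conditioned the medium were of the same line. Recipient cells were kept in medium alone (No CM), in medium taken from non-senescent cells (Cont CM), or in medium taken from cells that nocodazole, a drug that depolymerizes microtubules, had driven into senescence (TIS CM, for therapy-induced senescence). Nocodazole was given at 100 ng/ml for 72 h. The sample labels give 72 h of exposure to conditioned medium and the design text gives 48 h. All groups shared DMEM with serum as the growth medium, and each group held 3 libraries of polyadenylated RNA. No label says that replicates came from separate cultures, so a p-value here reflects library-to-library spread alone, and this may be technical.

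Libraries held 32636708 to 39189036 fragments on genes. Of 8 markers of a mesenchymal breast cancer line, 7 had a mean of at least 1 FPKM (fragments scaled by gene length and library size), VIM among them at 345 to 401 FPKM, while SPARC lay at or below 0.149 FPKM. Among 8 luminal epithelial markers, 4 reached a mean of 1 FPKM: KRT18, KRT8, EPCAM and GATA3, with means of 133, 93.6, 8.54 and 5.61 FPKM. CDH1 had a mean of 0.636 FPKM, and ESR1, PGR and FOXA1 were at or near 0. Of the markers of other cells, 0 of 5 for fibroblasts, 1 of 5 for immune cells (CD14) and 1 of 4 for endothelium (KDR) reached that level. Cont CM replicate 1 stood apart from Cont CM replicates 2 and 3 on the second principal component of all tested genes, at -19.3 against 13.4 and 7.62.

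A test needed a mean of at least 0.5 FPKM over the 9 libraries, and 19 of the 44 genes met it: 6 ligands, 7 Frizzled receptors, both co-receptors, DKK1, ZNRF3, AXIN2 and LEF1. Of the other 25, 17 had fragments in at least 1 library and 8 were listed at 0 in all 9. FPKM are scaled by the deposited gene length, so levels set side by side between genes depend on that length too. DKK1 was highest at 195 to 336 FPKM, followed by LRP5 at 32.5 to 46.8 FPKM, and then by FZD2, FZD6 and FZD7, whose ranges of 23.0 to 30.01, 17.8 to 26.8 and 14.9 to 25.3 FPKM overlapped. By its mean over the 9 libraries the most abundant ligand was WNT7B at 5.50 to 9.18 FPKM, next to WNT5B at 5.02 to 7.46 FPKM, and these ranges also overlapped. In Cont CM replicate 1 the order was the other way, with WNT5B at 7.46 FPKM and WNT7B at 5.50 FPKM. In bulk RNA, fewer cells that express a gene and less RNA per cell cannot be told apart.

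**Figure D1:**
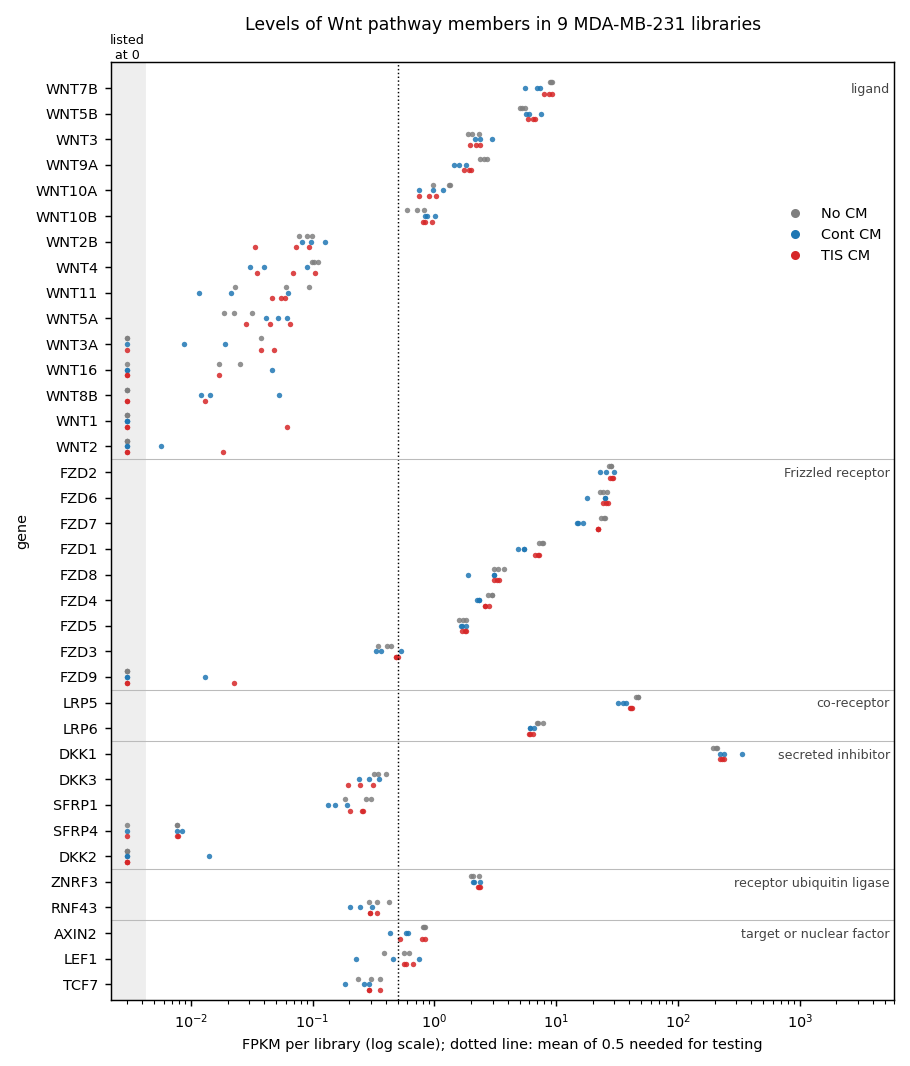
FPKM of the 36 genes with a fragment in at least 1 library, on a log axis, with 1 point per library coloured by group and genes ordered by role and mean. DKK1 lies at 195 FPKM or more in every library, and the dotted line marks the mean of 0.5 FPKM that a test needed.

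Medium from non-senescent cells was compared with medium alone to ask what conditioned medium does by itself to the receiving cells. Transcripts of 3 Frizzled receptors (FZD7, FZD1 and FZD4), both co-receptors (LRP5 and LRP6) and 2 ligands (WNT9A and WNT7B) fell in Cont CM. Thus 7 of the 19 tested genes fell and 0 rose by limma at an adjusted p under 0.05, beside 16.3% of all 13912 tested genes that passed in either direction, 8.56% lower and 7.77% higher. At an unadjusted p under 0.05 there were 10 of the 19, 2 of them higher. The share of all tested genes at that unadjusted level is not given here. Voom, a weighted limma fit of the recovered fragments, called 9, 1 of them higher, beside 19.5% of all tested genes. The median log2 change of the 19 was -0.20, beside -0.00056 for all tested genes. Groups did not overlap for 8 of the 19 lower in Cont CM and 3 higher, beside 33.3% of all tested genes in either direction, 16.8% lower and 16.6% higher. Unless another setting is named, fold changes are on the log2(FPKM + 0.5) scale, which understates the change of low genes.

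The next comparison set medium of senescent cells against medium of control cells. The labels name nocodazole only for the cells behind TIS CM, so senescence and exposure to or carry-over of the drug cannot be told apart here. FZD7, FZD1 and LRP5 rose in TIS CM relative to Cont CM, and 0 of the 19 fell, as was so at an unadjusted p under 0.05 and with voom. Among all tested genes 4.48% passed in either direction, 2.9% higher and 1.57% lower. The median log2 change of the 19 was 0.18, beside 0.0035 for all tested genes. Groups did not overlap for 5 genes, FZD7, FZD1, LRP5, FZD4 and WNT7B, each higher in TIS CM, beside 28.6% of all tested genes in either direction, 15% higher and 13.6% lower. This comparison shares the Cont CM libraries with the previous one, so the directions of both are not independent.

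Senescent medium against medium alone gave 0 of 19 genes called by limma, where 0.855% of all tested genes passed, 0.403% higher and 0.453% lower. At an unadjusted p under 0.05 there were 5 of the 19, 1 of them higher. The share of all tested genes at that level is not given here, so nothing is read from this count. Voom called 0 of the 19, beside 1.80% of all tested genes. The lowest adjusted p by limma was 0.117, for WNT9A. Groups did not overlap for DKK1 and WNT5B, higher in TIS CM, and for LRP5, LRP6, FZD7, FZD1 and WNT9A, lower in TIS CM, beside 24.4% of all tested genes in either direction, 12.7% higher and 11.6% lower.

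**Figure D2:**
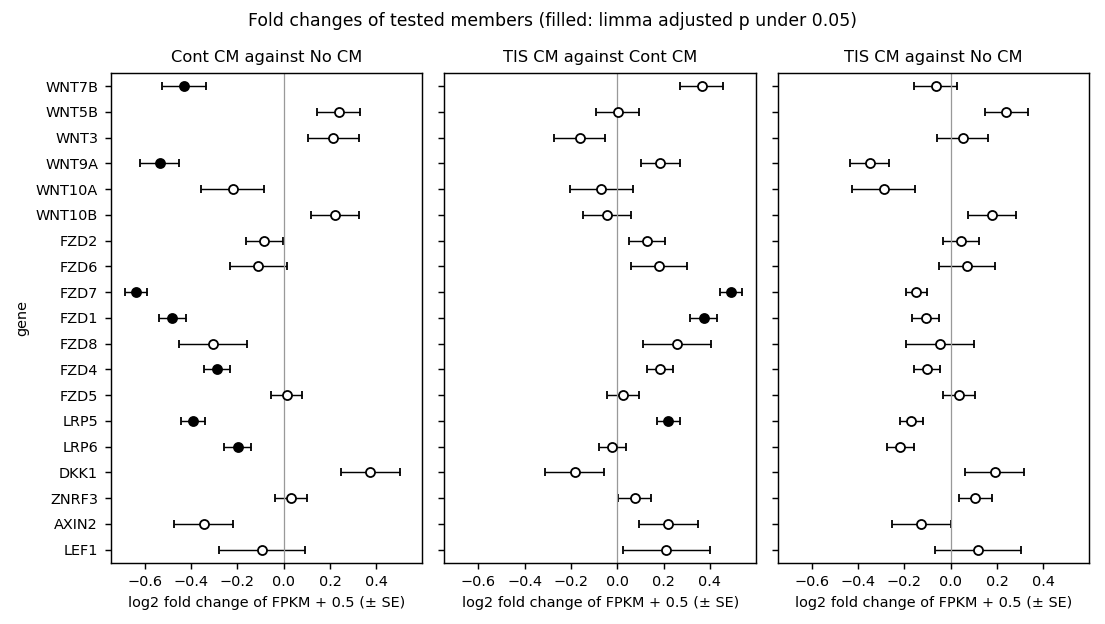
Log2 fold change of FPKM + 0.5 with its standard error for the 19 tested genes in each comparison, filled where limma's adjusted p is under 0.05. In the Cont CM against No CM panel 7 filled points lie left of 0, in the TIS CM against Cont CM panel 3 lie right of 0, and the TIS CM against No CM panel has none.

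Some measures of the libraries also differed in part between the groups. Over 13909 tested genes, the correlation of a library's deviation from the gene means with gene GC content was -0.03, -0.41 and -0.20 in Cont CM replicates 1 to 3, between -0.02 and 0.19 in No CM and between 0.07 and 0.22 in TIS CM. After that trend and the trend with gene length were removed from each library, Cont CM against No CM gave 7 genes, 6 lower and 1 higher, with WNT7B no longer called and WNT5B called, beside 15.2% of all tested genes. TIS CM against Cont CM then gave 2, beside 1.24% of all tested genes. Cont CM replicate 1 thus lay close to the lowest No CM library in its GC correlation. Mitochondrial genes took 1.85% to 3.15% of fragments in the No CM libraries, 2.80% to 3.31% in those of Cont CM and 2.95% to 3.07% in those of TIS CM. The groups overlapped in this share. The summed FPKM of the 8 luminal markers was 263 to 289 without conditioned medium, 193 to 244 in Cont CM and 231 to 237 with senescent medium, carried by KRT8 and KRT18, and its part in the Wnt genes' differences was not tested.

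FZD7, a receptor used by beta-catenin signalling and known for high levels in basal-like breast cancer, lies at chr2:202034587-202038445 (hg38, plus strand). Its level was 24.6, 23.5 and 25.3 FPKM in the No CM libraries, 14.9, 15.1 and 16.6 FPKM in Cont CM, and 22.1, 22.02 and 21.9 FPKM in TIS CM. The Cont CM libraries lay below all others, and the TIS CM libraries lay between Cont CM and No CM without touching either. Relative to No CM it fell in Cont CM by 0.64 on the log2 scale (SE 0.05, 1.56-fold, limma adjusted p = 0.000105). In TIS CM it was 0.49 higher than in Cont CM (SE 0.05, 1.41-fold, limma adjusted p = 0.00363) and 0.15 below No CM, which did not pass (limma log2 change -0.15, adjusted p = 0.207). Both calls held under each of the 11 alternative analyses and with each of the 9 libraries left out.

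FZD1, another receptor of the beta-catenin branch, lies at chr7:91264364-91271326 (hg38, plus strand). It stood at 7.65, 7.21 and 7.74 FPKM in No CM, at 4.83, 5.46 and 5.49 FPKM in Cont CM and at 6.66, 7.04 and 7.17 FPKM in TIS CM. As for FZD7, the 3 groups did not overlap, with Cont CM lowest and No CM highest. The Cont CM level fell by 0.48 on the log2 scale against No CM (SE 0.06, 1.40-fold, limma adjusted p = 0.00124). The rise from Cont CM to TIS CM was 0.37 (SE 0.06, 1.30-fold, limma adjusted p = 0.0161). For FZD1 that rise did not pass without TIS CM replicate 1, 2 or 3 (limma adjusted p = 0.0620, 0.0678 and 0.0676), nor when only the 6 libraries compared were fitted (0.0588). In these fits, in the same order, 0.0791%, 0.18%, 0.597% and 0.237% of all tested genes were called, beside 4.48% in the main fit.

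FZD4, the receptor for norrin as well as for Wnt ligands, lies at chr11:86945679-86955391 (hg38, minus strand). Its values were 2.98, 2.99 and 2.78 FPKM in No CM, 2.22, 2.34 and 2.32 FPKM in Cont CM, and 2.62, 2.62 and 2.79 FPKM in TIS CM. Cont CM was lowest and separate from both other groups, while TIS CM overlapped No CM. It fell in Cont CM by 0.29 against No CM (SE 0.06, 1.22-fold, limma adjusted p = 0.00951), a call that held in each of the 11 alternatives and 9 omissions. The difference of TIS CM from Cont CM, 0.19, did not pass (limma adjusted p = 0.0896). FZD4 overlaps PRSS23, a protease gene at a mean of 33.9 FPKM, and the sources used here do not say whether reads were counted by strand. The log2 change of PRSS23 in Cont CM against No CM was -0.12 (limma adjusted p = 0.347).

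The other tested Frizzled genes did not pass in any comparison with all 9 libraries. FZD2 stood at 28.0, 28.1 and 27.1 FPKM in No CM, at 30.01, 23.0 and 25.9 FPKM in Cont CM, and at 27.9, 28.6 and 29.5 FPKM in TIS CM. FZD6, a receptor of the polarity branch, stood at 26.2, 22.9 and 24.2 FPKM, 17.8, 25.3 and 25.4 FPKM, and 26.8, 25.7 and 24.4 FPKM in the same order. For both genes Cont CM replicate 1 was the library that stood off from the others of its group, high for FZD2 and low for FZD6. Without that library FZD2 was called lower in Cont CM against No CM (log2 change -0.18, limma adjusted p = 0.0405) and higher in TIS CM against Cont CM (0.23, adjusted p = 0.0387), while FZD6 was not called (0.06, adjusted p = 0.546 for Cont CM against No CM).

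FZD8 was measured at 3.76, 3.11 and 3.30 FPKM in No CM, at 1.90, 3.09 and 3.11 FPKM in Cont CM, and at 3.27, 3.10 and 3.39 FPKM in TIS CM, so that 1 Cont CM library was low and all 3 groups overlapped. Its Cont CM against No CM change was -0.30 with a 95% interval from -0.64 to 0.03 (limma adjusted p = 0.195). FZD5 lay between 1.59 and 1.83 FPKM in all 9 libraries, and its Cont CM against No CM interval ran from -0.14 to 0.17 on the log2 scale. FZD3, between 0.334 and 0.530 FPKM, was under the level needed for a test, FZD9 had 3 fragments in all 9 libraries together, and FZD10 was listed at 0.

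Summed over the 10 Frizzled genes, the level was 92.6 ± 2.75 FPKM in medium alone, 77.1 ± 3.70 FPKM in Cont CM and 91.4 ± 0.133 FPKM in senescent medium (SD, n = 3). Every Cont CM library, at 73.7, 76.6 and 81.0 FPKM, lay below the lowest of the other groups, 89.9 FPKM. The share of FZD7 in this sum was 26.4% ± 0.855 for No CM, 20.1% ± 0.348 for Cont CM and 24.1% ± 0.093 for TIS CM (SD, n = 3). The share of FZD2 was 29.4% to 40.7% and that of FZD6 was 24.2% to 33.1% over the 9 libraries, so these 3 receptors held most Frizzled transcript in each library.

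LRP5, one of the co-receptors that pair with Frizzled in beta-catenin signalling, lies at chr11:68312609-68449275 (hg38, plus strand). Its level was 46.6, 44.9 and 46.8 FPKM in No CM, 32.5, 35.4 and 37.5 FPKM in Cont CM, and 40.1, 41.6 and 41.1 FPKM in TIS CM. The 3 groups did not overlap, and TIS CM lay between the others. In Cont CM it fell by 0.39 against No CM (SE 0.05, 1.31-fold, limma adjusted p = 0.00173), in each of the 11 alternatives and 9 omissions. Its rise of 0.22 from Cont CM to TIS CM passed narrowly (SE 0.05, 1.17-fold, limma adjusted p = 0.0455). For LRP5 that call was kept only without Cont CM replicate 1 or replicate 3 among the 9 omissions, with adjusted p between 0.0305 and 0.141 over them, and in 5 of the 11 alternatives. It was lost with no filter on low values (limma adjusted p = 0.0990), after rescaling to equal sums (0.0553) or quantile normalization (0.0516), in the fit of the 2 groups (0.110), with the replicate block (0.0877) and after removal of the GC and length trends (log2 change 0.12, adjusted p = 0.320). Against No CM, TIS CM was lower by limma without Cont CM replicate 1 (log2 change -0.17, adjusted p = 0.0397), but not with all 9 libraries (adjusted p = 0.185).

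LRP6, the second co-receptor, was less abundant: LRP5 made up 83.1% to 87.1% of the FPKM of the pair. Its values were 7.83, 7.04 and 6.93 FPKM in No CM, 6.60, 6.12 and 6.07 FPKM in Cont CM, and 5.96, 6.45 and 6.09 FPKM in TIS CM. No CM lay above both conditioned groups, which overlapped each other. LRP6 fell in Cont CM by 0.20 (SE 0.06, 1.15-fold, limma adjusted p = 0.0486), and the call was lost in every omission but that of Cont CM replicate 1, with adjusted p up to 0.138. Its TIS CM against No CM change of -0.22 did not pass (limma adjusted p = 0.146), and TIS CM against Cont CM was -0.02 with a 95% interval from -0.15 to 0.11.

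**Figure D3:**
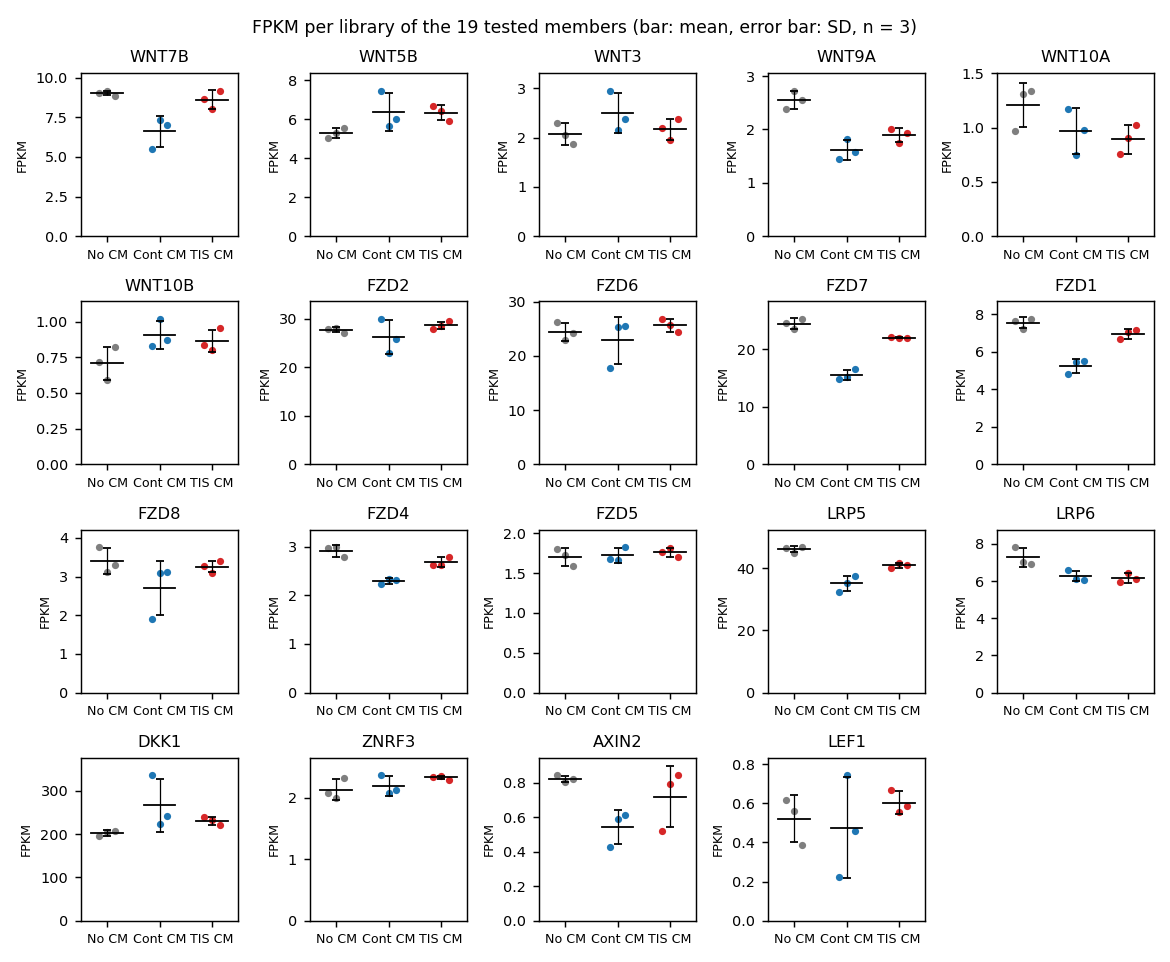
FPKM per library of the 19 tested genes on linear axes from 0, with the group mean as a bar and the SD (n = 3) as an error bar. FZD7, FZD1 and LRP5 show 3 separate groups with Cont CM lowest, and for DKK1, FZD6 and FZD8 1 Cont CM library stands away from the other two.

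Of the 19 ligand genes, 6 were tested, 9 others had fragments in at least 1 library and 4 were listed at 0. Of the tested ligands, WNT9A and WNT7B fell in Cont CM against No CM and the other 4 did not pass. WNT9A lies at chr1:227918656-227947898 (hg38, minus strand). It stood at 2.39, 2.73 and 2.56 FPKM in No CM, at 1.44, 1.82 and 1.58 FPKM in Cont CM, and at 2.01, 1.76 and 1.93 FPKM in TIS CM, so both conditioned groups lay below No CM and overlapped each other. It fell in Cont CM by 0.54 (SE 0.08, 1.45-fold, limma adjusted p = 0.00399), in each of the 11 alternatives and 9 omissions. Its TIS CM against No CM change, -0.35 (SE 0.08), was the largest fall of the 19 genes in that comparison and did not pass (limma adjusted p = 0.117).

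WNT7B, a ligand known for its part in mammary and lung epithelium, lies at chr22:45920362-45977129 (hg38, minus strand). It was measured at 9.03, 9.16 and 8.87 FPKM in No CM, at 5.50, 7.32 and 7.02 FPKM in Cont CM, and at 8.67, 7.997 and 9.18 FPKM in TIS CM. Cont CM lay below both other groups, with replicate 1 lowest, and TIS CM overlapped No CM. WNT7B fell in Cont CM by 0.43 (SE 0.09, 1.35-fold, limma adjusted p = 0.0158). The call was lost without No CM replicate 3 (adjusted p = 0.0501) and after removal of the GC and length trends (log2 change -0.32, adjusted p = 0.0848). From Cont CM to TIS CM the change was 0.37 and did not pass (limma adjusted p = 0.0608). It passed without Cont CM replicate 1 (0.25, adjusted p = 0.0400), with voom (0.0197), with protein-coding genes only (0.0295) and with a minimum mean of 2 FPKM (0.0457).

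WNT5B, a ligand of the branch without beta-catenin, stood at 5.02, 5.28 and 5.57 FPKM in No CM, at 7.46, 5.63 and 5.99 FPKM in Cont CM, and at 6.67, 6.41 and 5.92 FPKM in TIS CM. No CM lay below both conditioned groups, which overlapped. The changes against No CM were 0.24 in Cont CM and 0.24 in TIS CM, and neither passed (limma adjusted p = 0.118 and 0.305). With the GC and length trends removed, WNT5B passed in Cont CM against No CM (0.32, adjusted p = 0.0326). The gene overlaps FBXL14, at a mean of 4.41 FPKM, whose log2 change in Cont CM against No CM was -0.03.

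WNT3 lay between 1.88 and 2.95 FPKM, with Cont CM replicate 1 highest, WNT10A between 0.752 and 1.34 FPKM, and WNT10B between 0.591 and 1.02 FPKM. For WNT10B the No CM libraries, at 0.716, 0.591 and 0.820 FPKM, lay below the Cont CM libraries, at 0.830, 1.02 and 0.873 FPKM, and the change of 0.22 did not pass (limma 95% interval from -0.01 to 0.46). For WNT3 and WNT10A the groups overlapped in every comparison. WNT3, WNT10A and WNT10B did not pass in any comparison. Shares of the summed ligand FPKM moved with the 2 leading genes: WNT7B took 42.6% ± 1.01 for No CM, 34.4% ± 5.73 for Cont CM and 40.8% ± 1.56 for TIS CM, and WNT5B took 25.0% ± 0.999, 33.0% ± 4.30 and 30.1% ± 2.29 in that order (SD, n = 3).

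Ligands under the level needed for a test were WNT2B, WNT4, WNT11, WNT5A, WNT3A, WNT16, WNT8B, WNT1 and WNT2. WNT5A, the best known ligand of the branch without beta-catenin, had 97 fragments over the 9 libraries, with 0.0187, 0.0225 and 0.0315 FPKM in No CM, 0.0615, 0.0415 and 0.0517 FPKM in Cont CM, and 0.0649, 0.0449 and 0.0285 FPKM in TIS CM. Cont CM lay above No CM without overlap, and a fit without the filter on low values did not call it (limma adjusted p = 0.254). WNT4 ranged from 0.0308 to 0.110 FPKM. WNT6, WNT7A, WNT8A, WNT9B, SFRP2, SFRP5, DKK4 and FZD10 were listed at 0 in all libraries, where 3 fragments would have given between 0.0167 and 0.102 FPKM depending on gene and library. That limit covers counting error only. In the fit without the filter, 0 of the 17 low genes passed in any of the 3 comparisons, with 3 of 51 at an unadjusted p under 0.05 and a lowest adjusted p of 0.234 for SFRP1 by limma.

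DKK1, which blocks LRP5 and LRP6 and is itself a known target of beta-catenin, lies at chr10:52314296-52318042 (hg38, plus strand). Its level was 195, 204 and 208 FPKM in No CM, 336, 222 and 241 FPKM in Cont CM, and 239, 232 and 221 FPKM in TIS CM. Both conditioned groups lay above No CM, and Cont CM replicate 1 stood far above the other 8 libraries. The change in Cont CM was 0.37 with a standard error of 0.13 and did not pass (limma 95% interval from 0.09 to 0.66, adjusted p = 0.0786). Without Cont CM replicate 1 it was smaller, 0.19, and passed (limma adjusted p = 0.0308). It also passed without Cont CM replicate 2 (0.49, adjusted p = 0.0364), with protein-coding genes only (0.0417) and with voom (0.0274). TIS CM against No CM was 0.19 and did not pass (limma adjusted p = 0.574). DKK1 overlaps the antisense gene PRKG1-AS1, at a mean of 3.47 FPKM.

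DKK1 accounted for 99.7% to 99.9% of the FPKM summed over the 8 secreted inhibitors in every library. DKK3, which does not bind LRP5 or LRP6 as DKK1 does, ranged from 0.196 to 0.403 FPKM. SFRP1, a decoy for Wnt ligands that is often silenced in breast cancer, ranged from 0.134 to 0.302 FPKM. SFRP4 had 6 fragments and DKK2 had 2 over the 9 libraries.

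The promoters of DKK1, LRP5, FZD4 and WNT9A are shown. DKK1 held the only TCF/LEF match found, and the other 3 belong to genes that fell in Cont CM in every alternative. FZD1 also fell in every alternative, and its window, with a GC content of 65.2% and an exon of FZD1 inside, is not shown. The DKK1 and FZD4 windows hold exon sequence of PRKG1-AS1 and AP001528.1. Sequences are the 250 bases before the RefSeq start in GRCh38.p14, 5′ to 3′ on the gene's strand, with capitals for matches to the TCF/LEF core CTTTGA on either strand. The windows are chr10:52314031-52314280 (plus), chr11:68312341-68312590 (plus), chr11:86955396-86955645 (minus) and chr1:227947933-227948182 (minus).
DKK1: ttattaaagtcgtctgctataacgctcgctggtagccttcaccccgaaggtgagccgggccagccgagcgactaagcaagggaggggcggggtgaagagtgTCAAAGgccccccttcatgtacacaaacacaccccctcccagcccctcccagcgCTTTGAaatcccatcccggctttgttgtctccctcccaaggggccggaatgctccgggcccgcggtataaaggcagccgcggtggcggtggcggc
LRP5: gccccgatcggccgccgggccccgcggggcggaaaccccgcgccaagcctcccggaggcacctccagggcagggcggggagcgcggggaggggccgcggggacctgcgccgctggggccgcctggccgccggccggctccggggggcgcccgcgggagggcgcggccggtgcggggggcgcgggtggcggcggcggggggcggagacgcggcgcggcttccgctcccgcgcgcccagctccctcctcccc
FZD4: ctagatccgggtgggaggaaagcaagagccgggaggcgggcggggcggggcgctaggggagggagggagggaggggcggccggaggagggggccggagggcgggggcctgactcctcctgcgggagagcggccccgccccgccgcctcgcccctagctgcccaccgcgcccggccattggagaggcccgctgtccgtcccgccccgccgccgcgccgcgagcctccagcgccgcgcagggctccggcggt
WNT9A: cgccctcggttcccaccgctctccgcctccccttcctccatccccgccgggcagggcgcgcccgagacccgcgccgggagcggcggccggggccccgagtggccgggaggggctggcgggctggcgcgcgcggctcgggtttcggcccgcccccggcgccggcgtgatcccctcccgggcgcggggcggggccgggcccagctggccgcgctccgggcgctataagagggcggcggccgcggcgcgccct
The table held 34 promoters of 29 of the 44 genes, 11 of them tested genes. FZD2, FZD6, FZD7, WNT7B, WNT10B, LRP6, ZNRF3 and AXIN2 were the tested genes without an entry. The TCF/LEF core was found in 1 of the 34, at 149 to 144 bases before the start of DKK1 on the minus strand and at 95 to 90 on the plus strand, while 11.2% of all 35116 promoters held it. The AP-1 site TGANTCA, which reads the same on both strands and in no case overlapped a TCF/LEF match, was found in 1 of the 34, a promoter of RNF43, against 6.57% of all. GC content of the printed windows was 62.8% for DKK1, 87.2% for LRP5, 80.8% for FZD4 and 84.4% for WNT9A, beside a median of 58% over all promoters. The median was 67% over the 12 promoters of tested genes of the name rule and 67.8% over the 22 of its untested genes. A link of GC content to the changes was not tested. A match or its lack describes these letters only.

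The receptor ligases and the target and nuclear genes did not pass in any comparison with all 9 libraries. ZNRF3, which removes Frizzled from the cell surface, stayed between 2.00 and 2.37 FPKM, and its Cont CM against No CM interval ran from -0.13 to 0.19 on the log2 scale. RNF43, its relative, ranged from 0.202 to 0.423 FPKM and was not tested. AXIN2, a scaffold of the destruction complex and a widely used readout of beta-catenin activity, stood at 0.842, 0.802 and 0.819 FPKM in No CM, at 0.429, 0.587 and 0.610 FPKM in Cont CM, and at 0.519, 0.794 and 0.843 FPKM in TIS CM. All Cont CM libraries of AXIN2 lay below No CM, while TIS CM spanned both. Its change in Cont CM, -0.35 (SE 0.13), did not pass (limma adjusted p = 0.0956), but did with protein-coding genes only (0.0431) and with voom (log2 change -0.60, adjusted p = 0.0495). The voom fit has no offset of 0.5 FPKM, so the sizes -0.35 and -0.60 are not on the same scale. LEF1, a nuclear partner of beta-catenin, varied from 0.226 to 0.744 FPKM within Cont CM alone, and TCF7 ranged from 0.184 to 0.360 FPKM and was not tested.

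Cont CM replicate 1 held the extreme value for many of these genes. It was the lowest of the 9 libraries for 10 of the 19 tested genes and the highest for 5, beside 21.5% and 18.9% of all tested genes. The 10 were AXIN2, FZD1, FZD4, FZD6, FZD7, FZD8, LEF1, LRP5, WNT7B and WNT9A, and the 5 were DKK1, FZD2, WNT3, WNT5B and ZNRF3. Without that library, Cont CM against No CM gave 9 calls in place of 7, while the share of all tested genes called went from 16.3% to 19.9%. TIS CM against Cont CM gave 5 in place of 3, and the share of all tested genes went from 4.48% to 7.79%.

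**Figure D4:**
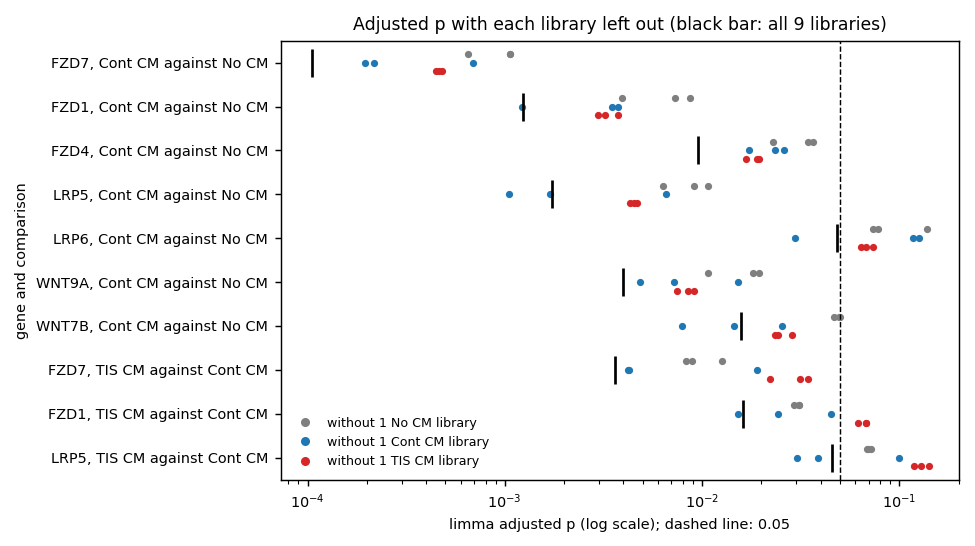
Limma adjusted p on a log axis for the 10 calls, with all 9 libraries (black bar) and with each library left out (points coloured by the group that lost a library). FZD7 stays left of the dashed line at 0.05 in both of its comparisons, while LRP6 passes only without Cont CM replicate 1 among the omissions.

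Other genes of the pathway were read from 5 lists of 87 genes, of which 86 were in the table and 56 were tested. In Cont CM against No CM, 7 of the 56 rose and 9 fell, beside 7.77% higher and 8.56% lower of all tested genes. In TIS CM against Cont CM, where 4.48% of all tested genes were called, 3 rose and 0 fell. At an unadjusted p under 0.05, 7 were higher and 4 lower. By voom 4 were higher and 3 lower, beside 7.93% of all tested genes called. In TIS CM against No CM, where 0.855% were called, 1 rose and 0 fell. There 6 were higher and 3 lower at an unadjusted p under 0.05. By voom 2 were higher and 1 lower, beside 1.80% of all tested genes called. Of the 17 secretion and destruction-complex genes, all tested, BTRC, the ubiquitin ligase subunit that recognizes phosphorylated beta-catenin, rose from 4.99 ± 0.125 to 6.18 ± 0.164 FPKM in Cont CM (SD, n = 3, limma log2 change 0.28, adjusted p = 0.00795). APC and GSK3B, a scaffold and a kinase of the same complex, also rose (0.30 and 0.23, limma adjusted p = 0.0186 and 0.0392). CTNNB1, which encodes beta-catenin, fell from 32.1 ± 0.344 to 29.4 ± 0.218 FPKM (SD, n = 3, limma log2 change -0.13, adjusted p = 0.0229). The median over the 17 was 0.0032. Without No CM replicate 2, No CM replicate 3 or Cont CM replicate 2, APC was not called, and GSK3B was called in only 2 of the 9 omissions, those of No CM replicate 1 and Cont CM replicate 1. CTNNB1 was not called without any 1 of the No CM replicates or without Cont CM replicate 3.

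Among 9 tested nuclear effectors, CTNNBIP1, which binds beta-catenin and blocks its contact with TCF factors, fell from 17.6 ± 0.181 to 14.1 ± 1.27 FPKM in Cont CM and stood at 17.6 ± 0.706 FPKM in TIS CM (SD, n = 3). Its limma log2 changes were -0.32 in Cont CM against No CM (adjusted p = 0.00936) and 0.32 in TIS CM against Cont CM (adjusted p = 0.0285). For CTNNBIP1 the second call was lost in omissions of Cont CM replicate 2 and of TIS CM replicate 1, 2 or 3. TLE3, a co-repressor, fell in Cont CM (-0.29, limma adjusted p = 0.0101). Of 21 matched co-receptors and extracellular modulators only LGR4, KREMEN1, SOST, TPBG and GPC6 were tested, and limma and voom called 0 of the 5 in any comparison, with 1 at an unadjusted p under 0.05, in Cont CM against No CM.

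Of 13 tested genes of non-canonical Wnt signalling and planar polarity, 4 fell in Cont CM against No CM and 0 rose by limma, beside 8.56% lower and 7.77% higher of all tested genes, with a median log2 change of -0.17. At an unadjusted p under 0.05 limma had 7 lower, a level for which the share of all tested genes is not given here. Voom called 6 lower, beside 1390 lower and 1319 higher of all 13912 tested genes. There were 0 higher by each. ROR1, a receptor for WNT5A that is known in aggressive breast cancers, fell from 12.1 ± 0.508 to 9.44 ± 0.831 FPKM (SD, n = 3, limma log2 change -0.34, adjusted p = 0.00714). PRICKLE1, a core polarity protein, fell by 0.39 (limma adjusted p = 0.00654). DAAM1 and PRICKLE2 fell by 0.31 and 0.30 (limma adjusted p = 0.0279 and 0.0413). The call for DAAM1 was lost without No CM replicate 1 or 3 or Cont CM replicate 1 or 2, and that for PRICKLE2 was kept only without Cont CM replicate 2.

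The 12 tested beta-catenin target genes did not move one way in Cont CM against No CM: VEGFA, FOSL1, MYC and JUN rose and BMP4 and BIRC5 fell. VEGFA, an angiogenic factor, rose from 13.2 ± 1.46 to 19.5 ± 2.21 FPKM (SD, n = 3, limma log2 change 0.54, adjusted p = 0.00542), and FOSL1, an AP-1 subunit, from 186 ± 10.2 to 247 ± 16.7 FPKM (0.41, adjusted p = 0.00259). BMP4, a secreted growth factor, fell from 134 ± 1.94 to 83.5 ± 7.90 FPKM (-0.68, limma adjusted p = 0.000246) and was 0.42 higher in TIS CM, at 112 ± 1.28 FPKM, than in Cont CM (adjusted p = 0.0130). BIRC5, an inhibitor of apoptosis that peaks in mitosis, changed by -0.26 in Cont CM against No CM and by 0.32 in TIS CM against Cont CM (limma adjusted p = 0.0315 and 0.0363). MYC and JUN, transcription factors with many other inputs, rose by 0.20 and 0.13 (limma adjusted p = 0.0389 and 0.0475). CCND1, a cyclin often used as a target, stood at 176 ± 2.88, 179 ± 4.14 and 179 ± 4.0 FPKM in the 3 groups (SD, n = 3).

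Several of these calls were lost when 1 library or another was left out. FOSL1 also rose in TIS CM against No CM (limma log2 change 0.33, adjusted p = 0.0429), the 1 list gene called there, and it kept that call only without Cont CM replicate 1 or 2. BMP4 in TIS CM against Cont CM was not called without TIS CM replicate 1, 2 or 3 (adjusted p = 0.0626, 0.0578 and 0.0531), with log2 changes between 0.36 and 0.49 over its alternatives and omissions. BIRC5 lost its call in Cont CM against No CM without No CM replicate 1 or 3, Cont CM replicate 2 or TIS CM replicate 2 or 3, and in TIS CM against Cont CM without No CM replicate 1, Cont CM replicate 2 or any TIS CM replicate. MYC was called only without Cont CM replicate 1 and JUN only without Cont CM replicate 2 among the 9 omissions. With the GC and length trends removed, CTNNB1 changed by -0.20 and JUN by 0.19 in Cont CM against No CM.

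**Figure D5:**
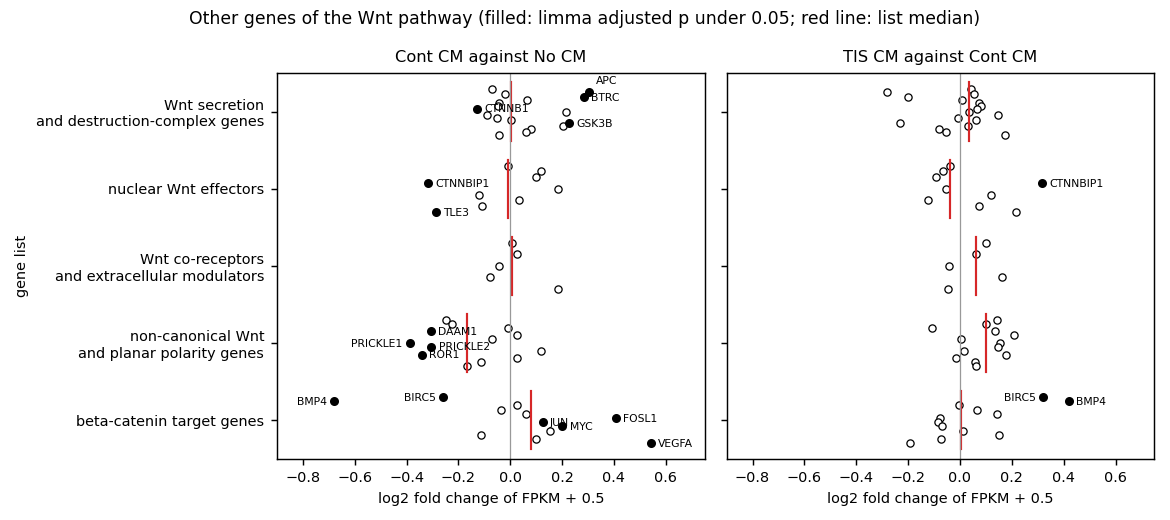
Log2 fold changes of the 56 tested genes of the 5 other Wnt lists, with filled points for limma adjusted p under 0.05 and a red line at each list's median. In Cont CM against No CM the median of the non-canonical and polarity genes lies at -0.17, and the filled points of the target genes lie on both sides of 0.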

How the data were processed

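Polyadenylated RNA of 9 MDA-MB-231 libraries was sequenced, 3 each for No CM, Cont CM and TIS CM. The authors deposited FPKM for 58735 genes, with gene length, position and biotype. Per the submitters' processing notes the build was hg38, and the tools named, with no role given, were DESeq2 1.20.0, featureCounts 1.5.0-p3, HISAT2 2.0.5 and fastp. Multiplied by gene length, 100% of values were whole multiples (within 0.01) of 1 step per library, so fragment counts were recovered for depth and for voom.

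The 13912 genes (11276 protein coding) whose mean reached 0.5 FPKM were tested on the log2(FPKM + 0.5) scale with limma 3.58.1 (R 4.3.3), over all 9 libraries with an intensity trend and moderated variances. Benjamini-Hochberg adjustment ran over all tested genes in each comparison, two-sided, and a call needed an adjusted p under 0.05. Intervals are 95% and unadjusted. The fit was also run on simulated independent libraries with the same dispersion for all genes. These had no outlying library and no GC trend, so that run does not cover such features of the real libraries. Figures were drawn with matplotlib 3.10.9.

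All tested genes of the name rule are given, and up to 4 called genes per direction of each other Wnt list, by size of change. Members and lists were chosen with earlier results of these data known. TIKI1 of the lists had no match. GC content came from GENCODE 29 and promoters from RefSeq (GRCh38.p14).

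The alternatives were pseudocounts of 0.1 and 1, no filter, a minimum mean of 2, protein-coding genes only, equal sums, quantile normalization, voom on recovered fragments with TMM scaling, a replicate block, a fit of only the 2 groups in question, removal of each library's trends with GC content and length, and each library left out. The sources used here do not give strand use in counting: 21 of the 44 genes overlap another gene, and 3 tested ones (DKK1, WNT5B and FZD4) overlap a gene of at least 1 FPKM.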

Additional observations from a re-analysis of the deposited data

How the results depend on the processing

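No gene reversed its direction on a call under any alternative. Of 1125 member values over 20 settings, 31 lost a call, 15 gained one and 1079 did neither. In Cont CM against No CM the count of called members was 5 to 9 in every setting, beside 7, and FZD1, FZD4, FZD7, LRP5 and WNT9A were called in all. The share of all genes tested in a setting that were called ran from 5.17% with no filter to 23.0% with protein-coding genes only. In TIS CM against Cont CM the fit of only the 2 groups compared gave 1 call, FZD7, beside 0.237% of all tested genes in place of 4.48%. Leaving out each library gave between 1 and 5 calls. The lowest count came without any 1 TIS CM library. Without TIS CM replicate 1, 2 or 3, respectively 0.0791%, 0.18% and 0.597% of all tested genes were called. The highest count came without Cont CM replicate 1, where 7.79% of all tested genes were called. In TIS CM against No CM the fit of the 2 groups gave 1 call, LRP5 (adjusted p = 0.0414), and leaving out each library gave between 0 and 1. That fit of the 2 groups called 2.38% of all tested genes, in place of 0.855%. The cause of these shifts was not tested, and neither was the part of the smaller number of libraries in such fits.

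Rescaling to equal sums moved the share of rises among all called genes in TIS CM against Cont CM from 64.8% to 41.8%, in TIS CM against No CM from 47.1% to 20.9%, and quantile normalization moved the former to 53.2%. LRP5 in TIS CM against Cont CM was not called under either setting (limma adjusted p = 0.0553 and 0.0516), nor LRP6 in Cont CM against No CM under quantile normalization (0.0549).

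With the replicate number as a block, the counts were 6, 2 and 0 for Cont CM against No CM, TIS CM against Cont CM and TIS CM against No CM, and the shares of all tested genes called were 10.5%, 0.906% and 0.0288% in place of 16.3%, 4.48% and 0.855%. LRP6 was then not called in the first (adjusted p = 0.0794) nor LRP5 in the second (0.0877). Same-numbered libraries did not deviate together (r between -0.187 and 0.0838 over 9 pairs), so the numbers were not taken as pairing. Depth limits the genes under about 0.1 FPKM, which rested on at most 348 fragments over 9 libraries.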

Other observations

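Several Wnt genes lie side by side in the genome, and in these cells 1 gene of each such pair carried nearly all the transcript. Within 100 kb there were 4 pairs of ligand genes. On chromosome 17 WNT3 had 3154 fragments over the 9 libraries and a mean of 2.25 FPKM. WNT9B, whose outer annotated gene bound is 0.046 kb from that of WNT3 on the other strand, had 0 fragments. Their RefSeq promoter windows lay further apart, at chr17:46818693-46818942 for WNT3 and chr17:46851333-46851582 for WNT9B. On chromosome 2 WNT10A had 1128 fragments and a mean of 1.02 FPKM, and WNT6, 6.13 kb away on the same strand, had 0. On chromosome 12 WNT10B had 705 fragments and WNT1, 6.69 kb away, had 3, all in TIS CM replicate 2. On chromosome 1 WNT9A had 2602 fragments and WNT3A, 59.2 kb away, had 16. These are descriptions over all libraries with no test. Of all 19 ligand genes, 13 were under the level needed for a test, 4 of them at 0. Low ligand genes were thus common outside these pairs too.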
